A study of Mus musculus with 14 samples.

Results

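The comparison described here set the left-over carotid artery of mice labelled Poldip2-SMC-/- against that of mice labelled Poldip2-floxed. It used 6 of the 14 RNA sequencing libraries of the study, chosen by the labels alone: 4 labelled as a knockout of Poldip2 in smooth muscle cells (SMC) and 2 labelled as littermate controls. The mice were C57BL/6, 10 weeks old and fed standard chow, and the left-over artery is the wall that remained after the lumen had been flushed with 150 µL of Qiazol. The other 8 libraries came from the flushed endothelial fraction of control and endothelial knockout mice and are not compared here. The labels do not name the Cre line or promoter behind the smooth muscle deletion. They number the samples of a group as repeats without saying that each came from its own mouse, so the p-values below measure only the spread between these samples, which may be technical.

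Poldip2 encodes a protein found in the nucleus, the cytoplasm and mitochondria that binds DNA polymerase delta and associates with the NADPH oxidase Nox4. In smooth muscle it has been tied to hydrogen peroxide production by Nox4, to the turnover of focal adhesions and to the matrix that the cells lay down. The media of a carotid artery consists of contractile smooth muscle between elastic layers, and the adventitia around it holds fibroblasts, macrophages, nerves and fat. In such a bulk sample fewer cells of a type and less RNA per cell cannot be told apart.

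Poldip2 itself ran against the labels. The gene (chr11:78512193-78522736, + strand, GRCm38) had 64.5 CPM (counts scaled to a common library size by TMM) in labelled knockout 1, 59.998 in labelled knockout 2, 83.7 in labelled knockout 3 and 86.8 in labelled knockout 4. The labelled controls had 32.6 CPM in replicate 1 and 27.7 CPM in replicate 2. The groups did not overlap, and the lowest library labelled knockout held more Poldip2 RNA than either library labelled control. The log2 fold change of labelled knockout over labelled control was 1.29 (SE 0.20; edgeR adjusted p = 0.00886). An exact two-sided permutation test over the 15 possible arrangements gave p = 0.0667, the smallest it can give. Left without labelled control 2, the comparison gave 1.17 with an adjusted p of 0.110.

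The direction of every difference below therefore has 2 readings. Read by the labels, a positive log2 fold change means more RNA in the smooth muscle knockout. The authors' deposited table points the other way: in 14805 of 14805 genes at 1 FPKM or more its Ctrl_SM group value was, within a tolerance of 1e-06, the average of labelled knockouts 1 to 4. In the authors' deposited table Poldip2 had 12.7 FPKM in the PD2KO_SM group and 35.9 FPKM in the Ctrl_SM group. The log2 fold change deposited for PD2KO_SM over Ctrl_SM was -1.25, which is not the plain ratio of those means. Read that way, the libraries labelled knockout are controls, and every gene given as higher in them was lower in the knockout. Below, "labelled knockout" and "labelled control" name the libraries by their labels, and "rose" and "fell" describe the libraries labelled knockout. Each sign turns round under the reading of the deposited table. The deposited comparison is not the one made here with its signs turned. Its PD2KO_SM mean matched the mean of the labelled controls in 1 of 14253 genes, so which libraries it averages is not known. Sizes are not comparable either: Ciart is at 1.20 for PD2KO_SM over Ctrl_SM, against -4.09 here. The deposited group means of Ciart were 7.21 FPKM in PD2KO_SM and 0.353 FPKM in Ctrl_SM, farther apart than that 1.20 on the log2 scale. Which reading holds was not tested beyond the Poldip2 level. The description numbers of labelled knockouts 1, 2 and 4 also occur on endothelial libraries labelled littermate control, while those of labelled knockout 3 and of both labelled controls do not occur in the endothelial fraction.

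The 6 libraries held between 15019891 and 19733086 counts, with 28022 to 30145 genes detected in each. A count of 0 allows a level of up to 0.152 to 0.1997 CPM, depending on the library, for counting error only. Genes encoded by the mitochondrial genome took 0.951% of the counts in labelled knockout 1, 0.377 to 0.466% in the other 3 libraries labelled knockout, and 0.379 to 0.414% in the labelled controls. Smooth muscle RNA was abundant in every library. Acta2, smooth muscle alpha-actin, had 5651 to 7518 CPM in the libraries labelled knockout and 6232 and 6278 CPM in those labelled control. In a principal component analysis the first component (41.5% of the variance) placed the labelled knockouts at -17.6, -32.5, 0.25 and 0.32 and the labelled controls at 28.9 and 20.7.

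Of 20442 genes tested, 162 were called at an edgeR adjusted p under 0.05, which is 0.792% of them. In the libraries labelled knockout 86 genes rose (0.421%) and 76 fell (0.372%). Every count of called list members below is to be read against these shares of all genes. Among the called genes, 54 rose and 50 fell by more than 1 on the log2 scale. The called rises ran from 0.73 to 3.12 with a median of 1.14, and the called falls from -5.10 to -0.70 with a median of -1.12. The median over all genes was 0.03. The 2 groups did not overlap at any called gene, against 20.3% of all genes tested without overlap. Of the called genes 156 code for protein and 4 are annotated pseudogenes, namely Gm12715, Gm8355, Gm15542 and Gm17383. The threshold fell between Zfp503, called at an adjusted p of 0.0498, and Snrpa and Nox4, not called at 0.0506.

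**Figure D1:**
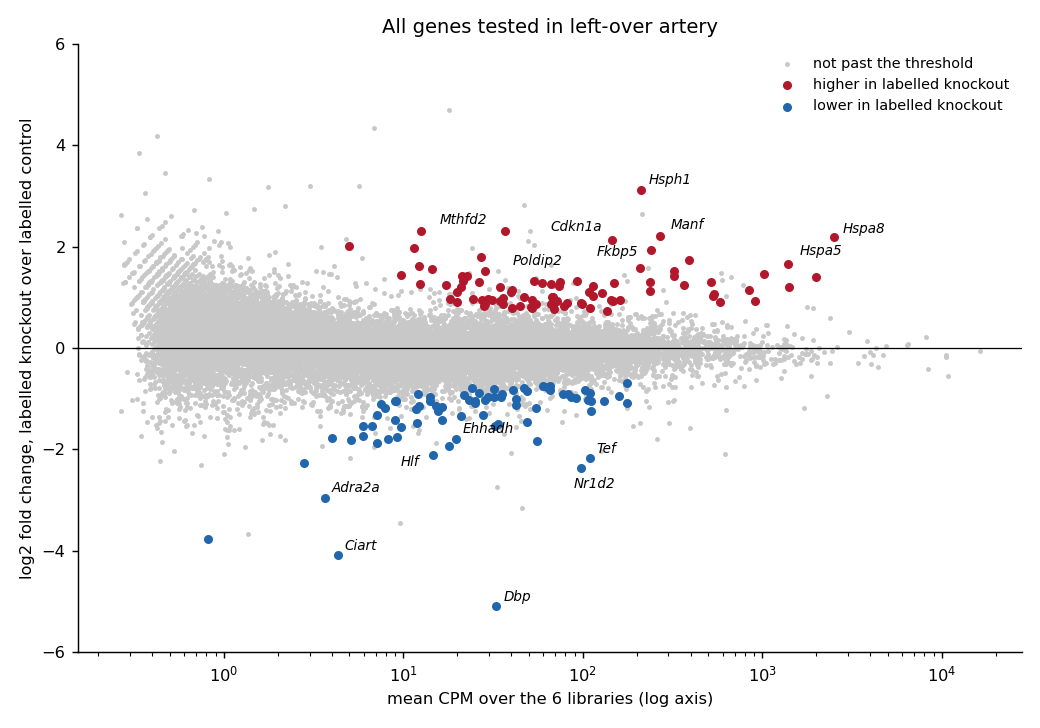
Log2 fold change of labelled knockout over labelled control against the mean CPM over the 6 left-over artery libraries (log axis), 1 point per gene tested (n = 20442). The 86 genes that rose (red) and the 76 that fell (blue) at an edgeR adjusted p under 0.05 are marked, and 15 are named; Hsph1 at 3.12 is the highest of those named and Dbp at -5.10 the lowest.

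The calls leaned on the 2 control libraries. Without labelled control 1, 117 of the 162 calls were lost, and without labelled control 2, 137 were lost. Without labelled knockout 1, 2, 3 or 4 the losses were 85, 27, 50 and 13. All 162 genes kept their sign in each of these omissions. With 1 labelled control the fit assumes that this lone sample varies as the labelled knockouts do. The call was kept in all 6 omissions by 10 genes: Banp, Cdkn1a, Dnaja1, Fkbp5, Hspa8 and Mthfd2, which rose, and Adra2a, Nr1d2, Pik3ip1 and Tef, which fell. When all 14 libraries entered 1 fit, which shares its spread with the endothelial fraction, 4 of these 10 did not pass: Cdkn1a, Dnaja1, Fkbp5 and Hspa8 (adjusted p = 0.0818 to 0.207). That fit called 67 of the 162 genes.

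**Figure D2:**
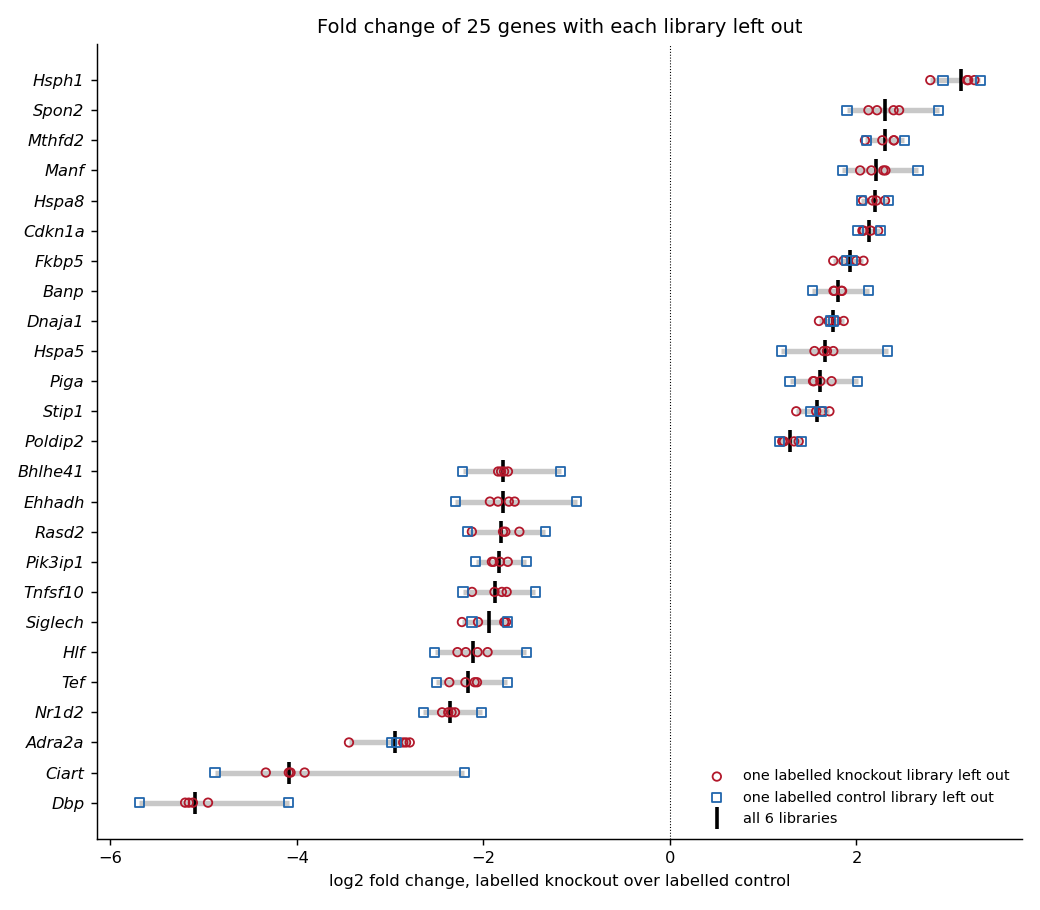
Log2 fold change (labelled knockout over labelled control) of the 12 highest and 12 lowest named genes and of Poldip2, with all 6 libraries (black bar) and with 1 library labelled knockout (red circle) or labelled control (blue square) left out. Every point of a gene stays on its side of 0, and the spread is widest for Ciart and Dbp, where leaving out a labelled control moves the value most.

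Chaperones of the cytosol formed a large group among the rises. These proteins hold, fold or disaggregate other proteins: the HSP70 proteins bind exposed hydrophobic stretches, J-domain proteins deliver clients and stimulate the HSP70 ATPase, and HSP110 proteins exchange the nucleotide. Of 18 tested genes of the HSP70, HSP110 and J-domain list, 7 rose and 0 fell at the threshold that 0.421% and 0.372% of all genes passed. The list's median log2 fold change was 0.89, against 0.03 over all genes. The summed level of the list was 5444, 7162, 4403 and 5621 CPM in labelled knockouts 1 to 4, against 1697 and 1885 CPM in labelled controls 1 and 2.

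Hsph1, the main cytosolic HSP110, had 251, 486, 206 and 254 CPM in labelled knockouts 1 to 4, against 38.9 and 29.6 CPM in the labelled controls. Labelled knockout 2 stood well above the other libraries, and all 4 lay far above both labelled controls. The log2 fold change was 3.12 (SE 0.39; edgeR adjusted p = 0.0146), and the call was lost without labelled knockout 4 or either labelled control (0.0809 to 0.0934). Hspa8, the constitutive HSP70 that also uncoats clathrin vesicles, had 3127, 4240, 2564 and 3555 CPM, against 660.1 and 810.4 CPM. Its libraries fell into 2 separate levels, 2.20 apart on the log2 scale (SE 0.23; edgeR adjusted p = 0.000716). Dnaja1, a J-domain partner of Hspa8, had 534, 656, 372 and 464 CPM, against 149.5 and 153 CPM, a log2 fold change of 1.74 (SE 0.22; edgeR adjusted p = 0.00396).

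The other called members were J-domain genes with smaller fold changes. Dnajb1, the heat-inducible HSP40, had 155, 115, 141 and 152 CPM in the labelled knockouts and 53.7 and 65.8 CPM in the labelled controls, and rose by 1.23 (adjusted p = 0.00795). Dnaja4, Dnajb4 and Dnajb2 rose by 1.21, 0.94 and 0.83 (adjusted p = 0.048, 0.0271 and 0.0419). The inducible HSP70 genes did not pass. Hspa1a had 86.2, 87.9, 46.1 and 56.5 CPM in the labelled knockouts and 8.18 and 19.6 CPM in the labelled controls (adjusted p = 0.0928). Hspa1b had 313, 550, 138 and 183 CPM against 31.1 and 63.4 CPM (adjusted p = 0.362). Neither gene overlapped between the groups, but libraries of the same label were spread widely, and the near-identical sequences of Hspa1a and Hspa1b make the split of reads between them uncertain. Hspa4, Dnaja2, Dnajb6 and Dnajc7 lay between -0.12 and 0.13.

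The HSP90 system receives clients from HSP70 and completes the folding of kinases and steroid receptors. Of its 27 tested genes, chaperonins and cochaperones included, 6 rose and 0 fell, 26 had a positive sign and 23 were higher without overlap, a class that holds 9.15% of all genes. The median was 0.51. Hsp90aa1, the inducible cytosolic HSP90, had 363, 640, 282 and 363 CPM in the labelled knockouts against 145 and 144 CPM in the labelled controls, and rose by 1.51 (SE 0.29; edgeR adjusted p = 0.0478). Hsp90ab1, its constitutive paralog, had 1480, 2267, 1340 and 1828 CPM against 832 and 672 CPM, and rose by 1.20 (SE 0.23; adjusted p = 0.0268). Again labelled knockout 2 was the highest library for both genes.

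The called cochaperones act between HSP70 and HSP90 or on HSP90 itself. Stip1, the adaptor that joins HSP70 to HSP90, had 225, 384, 188 and 273 CPM in the labelled knockouts against 93.2 and 86.3 CPM in the labelled controls, and rose by 1.58 (SE 0.26; adjusted p = 0.0157). Fkbp5, an immunophilin that lowers the hormone affinity of the glucocorticoid receptor, had 351, 430.5, 214 and 273 CPM against 84.9 and 81.6 CPM, and rose by 1.93 (SE 0.25; adjusted p = 0.00715). Its paralog Fkbp4 rose by 1.31 (adjusted p = 0.0327) and Chordc1, an HSP90 cochaperone, by 1.30 (adjusted p = 0.00886). The 8 subunits of the cytosolic chaperonin, Tcp1 and Cct2 to Cct8, were all higher without overlap, against 9.15% of all genes. They were higher by 0.35 to 0.75, and none passed (the lowest edgeR adjusted p was 0.0666, for Cct3). Hspa9 and Trap1, chaperones of the mitochondrial matrix, were at 0.04 and -0.22.

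Fkbp5 is also a classical target of the glucocorticoid receptor, though it was counted in the HSP90 list. Of the 20 tested genes of the glucocorticoid list 0 passed, with estimates from -0.61 to 2.10 (median 0.19). Without overlap 4 were higher and 3 lower, against 9.15% and 11.1% of all genes. Of 6 small heat shock protein genes 0 passed, with Hspb1 at 339, 527, 197 and 312 CPM in the labelled knockouts and 156 and 155 CPM in the labelled controls (log2 fold change 1.15; adjusted p = 0.234). Of 5 genes for heat shock factors, the transcription factors that switch chaperone genes on, 0 passed; Hsf1 was at 0.36 (adjusted p = 0.567). Of the 7 calls of the HSP70 list 2 remained without labelled control 1, 3 without labelled control 2 and 6 or 7 without any 1 labelled knockout. Of the 6 calls of the HSP90 list 2 remained without labelled control 1, 1 (Fkbp5) without labelled control 2 and 5 or 6 without any 1 labelled knockout. With all 14 libraries in 1 fit, 2 genes of the HSP70 list and 0 of the HSP90 list were called.

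Heat shock factors bind inverted repeats of GAA near the start of a gene. The element searched was GAA, then TTC, then GAA, with any 2 bases between neighbouring units, on both strands, in windows of 250 bases before to 50 after the start from RefSeq (GRCm38.p6), which matched 123 of the 162 called genes. It occurs in 0.662% of 27025 genes with such a window, in 2 of 66 genes that rose (Hsph1 and Chordc1) and in 0 of 57 that fell. Both windows are shown because they carry the element, from 250 bases before to 30 after the start, with the matching bases in capitals. Hsph1 lies at chr5:149636286-149636565, - strand and its match begins 15 bases after the start; Chordc1 lies at chr9:18292017-18292296, + strand and holds 3 matches that overlap each other across the start.
Hsph1: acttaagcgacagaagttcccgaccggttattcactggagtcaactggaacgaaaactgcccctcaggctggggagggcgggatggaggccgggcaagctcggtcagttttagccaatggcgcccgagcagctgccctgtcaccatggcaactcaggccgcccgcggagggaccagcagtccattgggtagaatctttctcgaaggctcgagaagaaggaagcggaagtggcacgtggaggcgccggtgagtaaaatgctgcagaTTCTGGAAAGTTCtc
Chordc1: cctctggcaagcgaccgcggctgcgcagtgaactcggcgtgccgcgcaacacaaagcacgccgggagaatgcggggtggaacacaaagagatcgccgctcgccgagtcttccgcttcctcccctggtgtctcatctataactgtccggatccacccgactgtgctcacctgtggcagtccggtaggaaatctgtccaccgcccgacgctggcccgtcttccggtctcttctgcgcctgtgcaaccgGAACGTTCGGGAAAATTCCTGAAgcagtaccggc
A match is a run of letters and not a measured binding site, and the windows of the other called chaperone genes matched at RefSeq do not hold it. The Hsph1 window also contains the E-box letters that are taken up with the clock genes.

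The endoplasmic reticulum (ER) folds secreted and membrane proteins, and its unfolded protein response raises chaperones and degradation factors through the sensors Ire1, Perk and Atf6. Of 27 tested genes of this list 7 rose and 0 fell, with a median of 0.52. In all 13 genes were higher without overlap, against 9.15% of all genes tested. Hspa5, the luminal HSP70 known as BiP, had 1415, 2230, 1721 and 1867 CPM in the labelled knockouts against 786 and 357 CPM in the labelled controls. As a ratio, the labelled controls differed from each other by more than the labelled knockouts did. The log2 fold change was 1.66 (SE 0.30; edgeR adjusted p = 0.0348), and 1.19 without labelled control 2 (adjusted p = 0.111); the call was also lost without labelled knockout 2, 3 or 4 (0.0543 to 0.137). Manf, a secreted ER protein induced by misfolding, had 272, 486, 299 and 400.4 CPM against 100.4 and 57.5 CPM, and rose by 2.21 (SE 0.30; edgeR adjusted p = 0.00967). Xbp1, the transcription factor whose RNA is spliced by Ire1, had 606, 624, 636 and 745 CPM against 346 and 276 CPM, and rose by 1.07 (SE 0.18; adjusted p = 0.0129).

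Ddit3, the factor CHOP, had 40.8, 55.1, 48.97 and 51.95 CPM in the labelled knockouts against 22.03 and 22.2 CPM in the labelled controls, and rose by 1.15 (SE 0.18; adjusted p = 0.00897). The other called genes serve the disposal of misfolded proteins: Herpud1, a membrane organiser of the degradation complex, rose by 1.31 (adjusted p = 0.0132), Syvn1, its ubiquitin ligase, by 1.33 (0.0332), and Dnajb9, a BiP cochaperone, by 1.32 (0.0332). The abundant lectin chaperones and disulfide isomerases did not pass. Calr, Canx, Pdia3, P4hb and Hsp90b1 lay between -0.03 and 0.23, and their groups overlapped. The sensors Ern1 and Atf6 were at -0.22 and 0.11. Creld2 and Sdf2l1, secretory pathway cofactors, had estimates of 1.58 and 1.44 that did not pass (adjusted p = 0.366 and 0.167). Of the 7 calls 4 remained without labelled control 1, 2 without labelled control 2, 3 without labelled knockout 4 and 6 without labelled knockout 1, 2 or 3. With all 14 libraries in 1 fit, 1 gene of the list was called.

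The ER stress element, CCAAT and CCACG with any 9 bases between them, is bound by Atf6 with its partner NF-Y. It occurs in 0.137% of the 27025 genes on either strand, in 2 of 66 that rose and in 0 of 57 that fell. The composite element TGATGCAA, which heterodimers of C/EBP and ATF factors such as CHOP and Atf4 bind, occurs in 1.03% of the genes, in 3 of 66 that rose and 0 of 57 that fell. The windows of the genes of the ER list that hold one of them are shown, with the element in capitals. Hspa5 (chr2:34771840-34772119, + strand) and Syvn1 (chr19:6046326-6046605, + strand) hold the ER stress element, and Herpud1 (chr8:94386179-94386458, + strand) holds the composite element on the other strand, where it reads TTGCATCA.
Hspa5: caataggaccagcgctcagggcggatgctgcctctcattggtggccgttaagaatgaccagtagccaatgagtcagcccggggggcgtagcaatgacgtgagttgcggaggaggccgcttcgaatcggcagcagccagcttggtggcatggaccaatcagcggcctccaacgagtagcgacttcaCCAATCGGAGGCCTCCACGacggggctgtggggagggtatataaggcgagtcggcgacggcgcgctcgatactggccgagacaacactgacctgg
Syvn1: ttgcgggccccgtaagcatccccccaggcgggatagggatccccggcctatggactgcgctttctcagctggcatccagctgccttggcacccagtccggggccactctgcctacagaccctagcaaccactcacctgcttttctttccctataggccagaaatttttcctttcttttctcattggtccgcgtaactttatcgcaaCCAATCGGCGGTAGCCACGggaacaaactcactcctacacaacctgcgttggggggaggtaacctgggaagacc
Herpud1: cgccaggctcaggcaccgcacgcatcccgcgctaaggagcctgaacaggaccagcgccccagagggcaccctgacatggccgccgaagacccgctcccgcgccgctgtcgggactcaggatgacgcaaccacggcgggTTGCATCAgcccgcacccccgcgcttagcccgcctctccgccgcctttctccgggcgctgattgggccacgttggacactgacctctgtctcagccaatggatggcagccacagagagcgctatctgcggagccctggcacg
Iars and Jdp2 are the other called genes with the composite element.

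The integrated stress response converges on Atf4, which raises amino acid transport, tRNA charging and serine and one-carbon enzymes. Of 33 tested genes of this list 4 rose and 0 fell (median 0.22). Atf4 had 179, 165, 181 and 177 CPM in the labelled knockouts against 82.7 and 101 CPM in the labelled controls, and rose by 0.93 (SE 0.16; edgeR adjusted p = 0.0146). Its 4 labelled knockout libraries were nearly level. Mthfd2, a mitochondrial folate enzyme, had 37.6, 70.96, 39.3 and 52.9 CPM against 11.6 and 8.76 CPM, and rose by 2.30 (SE 0.28; adjusted p = 0.0047). Slc7a5, the large neutral amino acid transporter, rose by 0.96 (adjusted p = 0.0478) and Cars, the cysteinyl-tRNA synthetase, by 0.86 (adjusted p = 0.0419). Of 19 cytosolic tRNA synthetase genes, a list added after the values were seen, 2 rose, Cars and Iars (0.87, edgeR adjusted p = 0.0348). In this list 10 genes were higher without overlap, against 9.15% of all genes, and the median was 0.29. Mthfd2 alone of the 4 calls of the first list remained without labelled control 1 or labelled control 2, and 3 or 4 remained without any 1 labelled knockout. Neither synthetase call remained without labelled knockout 1, labelled control 1 or labelled control 2.

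**Figure D3:**
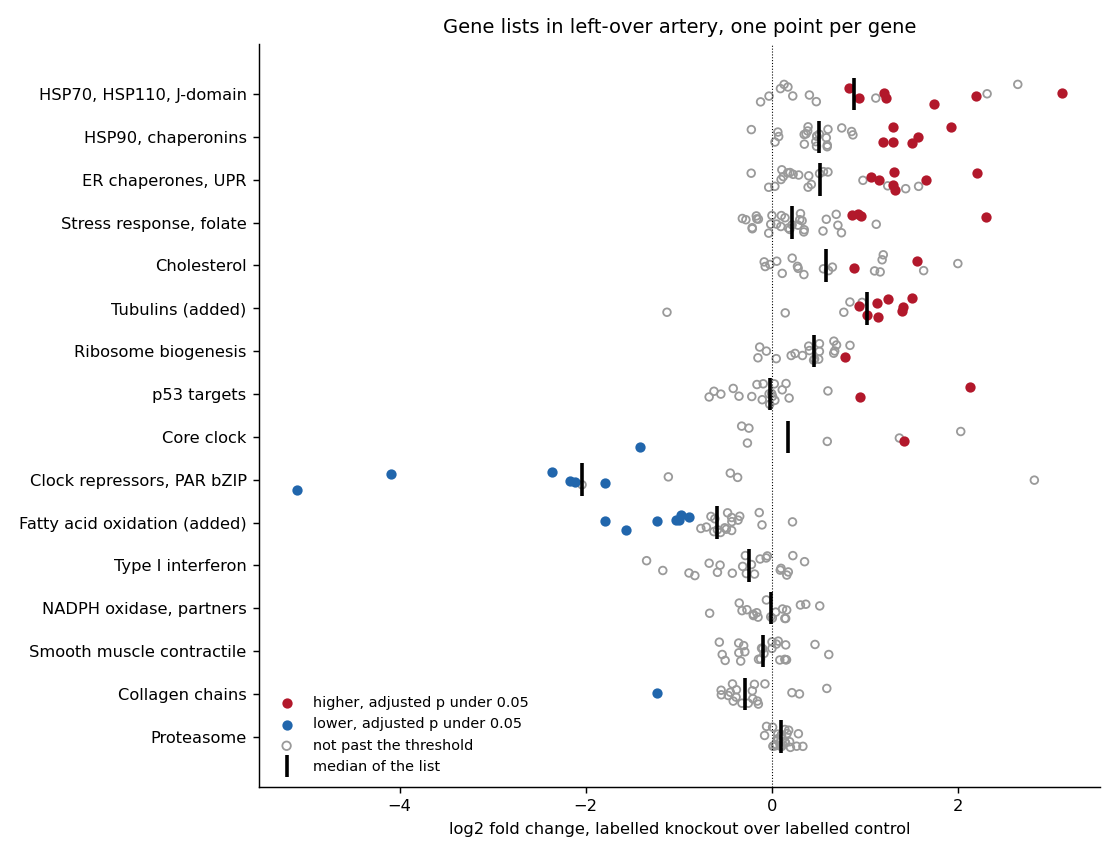
Log2 fold change (labelled knockout over labelled control) of the tested genes of 16 lists, 1 point per gene, with the median of each list as a black bar. Filled points passed an edgeR adjusted p under 0.05; the chaperone, ER and tubulin lists hold red points only, the clock repressor and fatty acid lists blue points only, and the smooth muscle contractile list none. The lists marked as added were drawn up after the values were seen.

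Cdkn1a, the cyclin-dependent kinase inhibitor p21, had 212, 190.2, 223 and 155 CPM in the labelled knockouts against 48.1 and 40.7 CPM in the labelled controls. The 4 labelled knockouts lay far above both labelled controls, and the log2 fold change was 2.14 (SE 0.19; edgeR adjusted p = 0.000181). Of 21 tested p53 target genes 2 rose, Cdkn1a and the nuclease gene Aen (0.95; adjusted p = 0.0412), 0 fell and the median was -0.02. Of the 24 tested genes of the DNA replication and proliferation list 0 passed (median 0.12). Outside this list the cell cycle genes Cks1b and Cdc25b were called, at 0.83 and -0.97 (edgeR adjusted p = 0.0324 and 0.0261). Klf4, a transcription factor that smooth muscle raises on dedifferentiation and that can bind the Cdkn1a promoter, had 90.4, 67.0, 90.6 and 94.8 CPM against 36.8 and 52.8 CPM and rose by 0.94 (adjusted p = 0.0412). It was the 1 called gene among 10 tested Krüppel-like factors. The Klf4 call was lost without labelled knockout 1 or 3 or either labelled control (adjusted p = 0.0707 to 0.607), as was that of Aen (0.0708 to 0.531), while that of Cdkn1a was kept in these omissions but not with all 14 libraries in 1 fit (0.0818).

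The circadian clock of the artery is a loop in which Arntl and Clock activate Per, Cry and Nr1d genes, whose products repress them in turn; Dbp, Tef and Hlf are outputs that bind D-boxes, and Nfil3 represses from the same sites. The labels do not state the hour at which the arteries were taken, so time of day and the labels cannot be told apart in these genes. Of 11 tested repressor and output genes 6 fell and 0 rose (median -2.04), 8 being lower without overlap, a class of 11.1% of all genes. Their summed level was 307, 326, 309 and 341 CPM in the labelled knockouts against 719.8 and 1267 CPM in the labelled controls.

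Dbp had 1.70, 3.29, 3.06 and 2.82 CPM in the labelled knockouts against 46.2 and 140.5 CPM in the labelled controls. It was the largest difference among the named genes, at -5.10 (SE 0.47; edgeR adjusted p = 0.0106), and the labelled controls differed widely from each other. Its call was kept without either labelled control but not without labelled knockout 1, 2 or 4 (adjusted p = 0.0555 to 0.104). Ciart, a repressor also called Chrono, had 0.606, 0.670, 1.00 and 0.434 CPM against 3.13 and 19.99 CPM (-4.09, SE 0.65; adjusted p = 0.0332). Without labelled control 2 it was at -2.21 (adjusted p = 0.195), and its call was also lost without each labelled knockout (adjusted p = 0.0953 to 0.293).

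Nr1d2, the nuclear receptor Rev-erb beta, had 37.5, 48.0, 42.2 and 36.2 CPM in the labelled knockouts against 165 and 256 CPM in the labelled controls. It had the smallest adjusted p of all genes (-2.36, SE 0.18; adjusted p = 4.26e-05). Tef had 39.6, 39.5, 52.5 and 69.5 CPM against 168 and 285 CPM (-2.17, SE 0.26; adjusted p = 0.00715), and Hlf had 7.69, 4.57, 9.19 and 6.24 CPM against 20.1 and 39.8 CPM (-2.11, SE 0.29; adjusted p = 0.00886). Bhlhe41, the repressor Dec2, fell by 1.79 (adjusted p = 0.00897), and by 1.17 without labelled control 2, with an adjusted p of 0.298. In all 6 genes labelled control 2 was the higher of the labelled controls.

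The labelled controls also differed from each other in the activator Arntl and in the repressors Nfil3 and Nr1d1. Arntl had 75.7, 61.5, 79.8 and 70.3 CPM in the labelled knockouts against 28.4 CPM in labelled control 1 and 6.68 CPM in labelled control 2, an estimate of 2.03 that did not pass (adjusted p = 0.310). Nfil3 had 63.8, 61.3, 71.8 and 66.99 CPM against 15.2 and 3.45 CPM (2.83; adjusted p = 0.153), and Nr1d1 had 61.7, 91.1, 31.5 and 64.6 CPM against 183 and 328 CPM (-2.04; adjusted p = 0.136). For all 3 the groups did not overlap, and labelled control 2 lay farther from the labelled knockouts than labelled control 1.

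Of 8 core clock genes 1 rose and 1 fell. Cry1, a late repressor, had 30.2, 26.4, 30.96 and 20.4 CPM in the labelled knockouts against 12.4 and 7.67 CPM in the labelled controls, and rose by 1.43 (SE 0.24; adjusted p = 0.0146). Per3 had 9.14, 13.3, 11.1 and 8.58 CPM against 22.1 and 34.2 CPM, and fell by 1.42 (SE 0.23; adjusted p = 0.0105). Per1 had 10.7 to 15.4 CPM in the labelled knockouts, between the 5.44 and 25.1 CPM of labelled controls 1 and 2. Per2 was at -0.24 with overlapping groups. Without labelled control 2 neither of these calls and 3 of the 6 repressor and output calls remained, while without labelled control 1 all 8 did. Both core calls and 4 or 5 of the 6 others remained without any 1 labelled knockout. With all 14 libraries in 1 fit 0 core genes were called, and 6 repressor and output genes were lower and 1 higher.

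D-boxes (TTATGTAA on either strand) occur in 1.11% of the 27025 genes, in 1 of 66 that rose (Jdp2) and in 1 of 57 that fell (Per3). The E-box CACGTG, bound by Clock with Arntl and by other basic helix-loop-helix factors, is common: it occurs in 8.09% of the genes, in 10 of 66 that rose and in 9 of 57 that fell. The windows of 3 clock genes that fell are shown with these letters in capitals. Per3 (chr4:151044636-151044915, - strand) holds 2 D-boxes, Tef (chr15:81802423-81802702, + strand) holds 1 E-box and Ciart (chr3:95882199-95882478, - strand) holds 3.
Per3: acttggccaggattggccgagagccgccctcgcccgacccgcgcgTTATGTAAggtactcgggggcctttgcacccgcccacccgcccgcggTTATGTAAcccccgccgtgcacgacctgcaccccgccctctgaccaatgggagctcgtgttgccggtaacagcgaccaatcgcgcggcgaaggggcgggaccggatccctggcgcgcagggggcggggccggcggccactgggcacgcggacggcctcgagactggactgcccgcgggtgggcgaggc
Tef: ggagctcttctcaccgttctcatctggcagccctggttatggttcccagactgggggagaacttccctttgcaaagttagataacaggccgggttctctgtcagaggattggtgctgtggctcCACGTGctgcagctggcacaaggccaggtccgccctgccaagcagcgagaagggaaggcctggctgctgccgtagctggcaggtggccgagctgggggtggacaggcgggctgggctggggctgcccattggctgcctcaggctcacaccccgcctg
Ciart: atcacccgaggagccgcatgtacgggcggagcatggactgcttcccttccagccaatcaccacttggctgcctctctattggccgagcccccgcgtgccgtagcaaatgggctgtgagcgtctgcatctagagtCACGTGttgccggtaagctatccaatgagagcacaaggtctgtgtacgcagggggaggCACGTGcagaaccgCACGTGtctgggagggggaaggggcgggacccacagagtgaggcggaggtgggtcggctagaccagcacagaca
Called genes with the E-box moved in both directions, among them Cry1, Klf4, Fkbp5 and Hsph1, which rose, and Bhlhe41, Tef, Ciart and Adra2a, which fell.

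**Figure D4:**
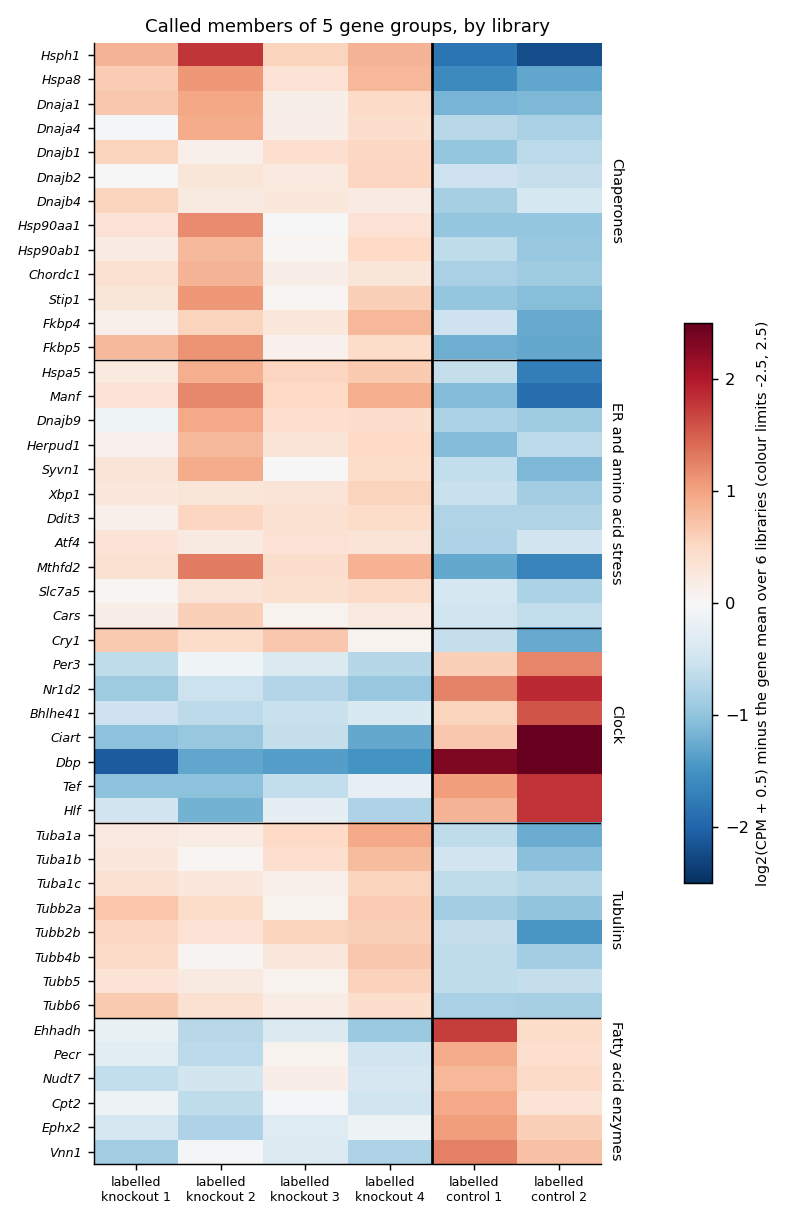
Level of 46 called genes in 5 groups, as log2(CPM + 0.5) minus the mean of the gene over the 6 libraries, with the 4 libraries labelled knockout left of the 2 labelled control. Chaperone, ER and tubulin genes are above their mean (red) in nearly every library labelled knockout, and labelled control 2 is the more extreme control for the clock genes while labelled control 1 is for Ehhadh and Vnn1.

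Tubulin genes stood together in a list added after the values were seen. Alpha and beta tubulin pair into the dimers that build microtubules. Of 13 tested isotypes 8 rose and 0 fell, with a median of 1.02 and summed levels of 4795, 4323, 4934 and 6568 CPM in the labelled knockouts against 2460 and 1818 CPM in the labelled controls. Tuba1a, the isotype of newborn and remodelling cells, had 2092, 2019.8, 2509.8 and 3402 CPM against 1147 and 753 CPM, and rose by 1.40 (SE 0.25; edgeR adjusted p = 0.0226). Tubb2a had 469.6, 399, 309 and 456 CPM against 159.5 and 146 CPM, and rose by 1.42 (SE 0.20; adjusted p = 0.00707). Tubb6 had 526, 440.5, 382 and 454 CPM against 190.3 and 189 CPM, and rose by 1.25 (SE 0.18; adjusted p = 0.00715).

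The remaining called tubulins, Tubb2b, Tubb4b, Tuba1b, Tuba1c and Tubb5, rose by 0.94 to 1.51 with adjusted p from 0.00897 to 0.0354. Tuba4a was level at 0.15, and Tuba8, with 1.30 to 4.00 CPM against 8.07 and 4.11 CPM, was at -1.12 (adjusted p = 0.298). Tubulin genes are near-identical in sequence, so the share of reads given to each isotype is uncertain. Of the 8 calls 3 remained without labelled control 1, 0 without labelled control 2, 6 without labelled knockout 1 and 7 or 8 without another labelled knockout; the sign of each held throughout. With all 14 libraries in 1 fit, 3 isotypes were called.

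Of 20 tested genes of cholesterol synthesis and uptake 2 rose and 0 fell, 17 were positive and the median was 0.58. Of these genes 9 were higher without overlap, against 9.15% of all genes. Mvd, a mevalonate pathway decarboxylase, had 10.4, 20.4, 21.4 and 21.6 CPM in the labelled knockouts against 5.22 and 7.23 CPM in the labelled controls, and rose by 1.57 (SE 0.30; edgeR adjusted p = 0.0332). Srebf2, the transcription factor that governs the pathway, had 103, 79.6, 94.2 and 108 CPM against 58.0 and 45.96 CPM, and rose by 0.89 (SE 0.18; adjusted p = 0.0332). Sqle, the epoxidase of the pathway, just missed the threshold with 30.5, 15.7, 31.3 and 28.4 CPM against 11.8 and 11.2 CPM (1.20; adjusted p = 0.0509). Hmgcs1, Insig1 and Srebf1 were at -0.02, 0.06 and 0.11 with overlapping groups. Neither call remained when labelled knockout 3 (adjusted p = 0.0535 and 0.0545), labelled control 1 (0.325 and 0.119) or labelled control 2 (0.095 and 0.427) was left out, and 1 of the 2 was lost without labelled knockout 1 or 2.

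Enzymes of fatty acid oxidation and peroxisomes, also a list added after the values were seen, moved one way where they passed. Of 25 tested genes 7 fell and 0 rose, 24 were negative and the median was -0.58. Ehhadh, the peroxisomal bifunctional enzyme, had 13.6, 9.502, 11.95 and 7.98 CPM in the labelled knockouts against 52.7 and 21.5 CPM in the labelled controls (-1.79, SE 0.32; edgeR adjusted p = 0.0405). Without labelled control 1 it was at -1.002 (adjusted p = 0.357). Ephx2, the soluble epoxide hydrolase, had 74.7, 58.5, 80.7 and 92.3 CPM against 207 and 153 CPM (-1.23, SE 0.19; adjusted p = 0.00886). Cpt2, the inner carnitine palmitoyltransferase, had 78.1, 55.2, 83.3 and 60.3 CPM against 167 and 109 CPM (-0.995, SE 0.20; adjusted p = 0.0373), and was at -0.66 without labelled control 1 (adjusted p = 0.616).

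Vnn1, a pantetheinase, and Pecr and Nudt7, peroxisomal enzymes, fell by 1.56, 1.02 and 0.97 (adjusted p = 0.0146 to 0.0481). Adipocyte markers also tended to be lower in the labelled knockouts, but their summed levels overlapped between the groups. Their summed level was 4552, 2688, 4275 and 1392 CPM in the labelled knockouts against 9112 and 4027 CPM in the labelled controls; 11 of 12 markers were negative, with a median of -1.05, 0 passed and none was at 0 counts. Labelled control 1 was the highest library for both the markers and 6 of the 7 called enzymes. Without labelled control 1 none of the 7 calls remained, without labelled knockout 1, 2 remained, and without any other library 4 or 5 did. With all 14 libraries in 1 fit, 4 genes of the list were called. The part of adipose RNA in these differences was not tested.

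Smooth muscle contractile genes did not pass in either direction. Of 24 tested genes 0 were called, 11 were positive and 13 negative, and the median was -0.09. Tagln, Cnn1, Myl9, Tpm1 and Tpm2, the calponin family, light chain and tropomyosin genes of the contractile apparatus, lay between 0.00 and 0.15 with overlapping groups. Myh11, smooth muscle myosin heavy chain, had 550, 660.5, 522 and 451 CPM in the labelled knockouts against 793 and 750.5 CPM in the labelled controls, without overlap, at -0.50 (SE 0.17; edgeR adjusted p = 0.278). Myocd, the coactivator of these genes, had 34.2, 37.7, 19.9 and 16.01 CPM against 17.5 and 17.6 CPM (0.61; adjusted p = 0.568).

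In the matrix 2 genes fell. Col8a1, a short chain collagen of the vessel wall, had 11.5, 11.5, 9.13 and 10.9 CPM in the labelled knockouts against 22.4 and 28.3 CPM in the labelled controls (-1.24, SE 0.19; edgeR adjusted p = 0.00897). It was the 1 call among 20 collagen genes, of which 17 were negative. Loxl4, a crosslinking lysyl oxidase, had 11.5, 9.81, 10.7 and 11.5 CPM against 22.6 and 25.7 CPM (-1.15, SE 0.18; adjusted p = 0.0106), the 1 call among 22 elastic fibre genes. The call of Loxl4 was lost without either labelled control (adjusted p = 0.0628 and 0.174) and that of Col8a1 without labelled control 2 (0.174). Of 14 proteoglycan genes and 17 metalloproteinase and inhibitor genes 0 passed. Ctgf, a matricellular protein and Hippo pathway target, had 1734, 1224, 1161 and 1087 CPM against 385 and 566 CPM, and rose by 1.45 (SE 0.23; adjusted p = 0.0106). It was the 1 call among 23 Notch and Hippo genes and was lost without labelled control 1 (1.20; adjusted p = 0.143).

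Nox4, the NADPH oxidase with which Poldip2 associates, lay just outside the threshold. It had 137, 145, 153 and 135 CPM in the labelled knockouts against 235 and 217 CPM in the labelled controls, 2 tight and separate levels, at -0.67 (SE 0.15; edgeR adjusted p = 0.0506). Of 19 tested genes of the oxidase and of other Poldip2 partners 0 passed, with a median of -0.01. Cyba, the p22phox subunit, and Rac1 were at -0.01 and 0.01. Pcna and the polymerase delta subunits Pold1 to Pold4 lay between -0.32 and 0.37. Genes of lipoylation and the TCA cycle, a process to which mitochondrial Poldip2 has been linked, were negative in 19 of 21 but 0 passed (median -0.20). In the lists of receptors and channels of the wall no gene passed. Of 25 vasoactive receptor and RGS genes, 16 potassium channel genes and 22 calcium channel and pump genes 0 were called. In the first of these lists Adra1b, an alpha-1 adrenergic receptor, had 14.6, 14.4, 17.8 and 20.1 CPM against 8.898 and 7.67 CPM (1.01, edgeR adjusted p = 0.0508). Receptor genes outside these lists were called. Npy1r was at 0.96 (edgeR adjusted p = 0.0299). Ptgfr, Vipr2 and Bdkrb2 were at -0.97, -0.91 and -1.32 (edgeR adjusted p = 0.0332, 0.0332 and 0.0473), and Adra2a is taken up below.

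Of 20 tested ribosome biogenesis genes 1 rose, Nop58, a core protein of box C/D particles that guide rRNA methylation, with 53.96, 42.1, 47.3 and 44.6 CPM in the labelled knockouts against 26.2 and 28.05 CPM in the labelled controls (0.79; edgeR adjusted p = 0.0478). Its call was lost without labelled knockout 1 or 3 or either labelled control (adjusted p = 0.0854 to 0.509). A further 14 did not pass but were higher without overlap, against 9.15% of all genes, and the median was 0.46. Of the 22 tested genes of the type I interferon list 0 passed. In this list 10 were lower without overlap, against 11.1% of all genes, and the median was -0.24. Irgm2 and Gbp4, interferon-inducible GTPases outside the list, were called at -0.75 and -1.47. Ifit3, an interferon-induced antiviral gene, had 18.5, 22.5, 41.5 and 34.4 CPM against 74.5 and 74.0 CPM (-1.34; adjusted p = 0.0509). Of 16 tested genes of histone acetylation and RNA splicing 1 rose and 1 fell (median -0.01). Srsf7 rose by 0.73 (edgeR adjusted p = 0.0393) and Srsf5 fell by 1.03 (edgeR adjusted p = 0.0268). Neither call remained without labelled control 1 or labelled control 2. That of Srsf7 was also lost without labelled knockout 1 (edgeR adjusted p = 0.0961) or 3 (0.0746).

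Among the 12 highest and 12 lowest differences, several genes belong to none of these groups. Spon2, a secreted spondin, had 10.96, 13.95, 23.1 and 20.1 CPM in the labelled knockouts against 4.56 and 2.30 CPM in the labelled controls, and rose by 2.31 (SE 0.37; edgeR adjusted p = 0.0146; 1.90 and 0.095 without labelled control 2). Banp, a nuclear matrix protein that binds CG-rich promoters, had 37.9, 33.1, 32.1 and 38.4 CPM against 12.2 and 8.05 CPM, and rose by 1.80 (SE 0.21; adjusted p = 0.00215). Piga, which starts the synthesis of glycosylphosphatidylinositol anchors, rose by 1.61 (adjusted p = 0.0146; 0.203 without labelled control 2). Adra2a, the alpha-2A adrenergic receptor, had 0.848, 0.731, 0.813 and 2.06 CPM against 8.898 and 8.601 CPM, and fell by 2.95 (SE 0.39; adjusted p = 0.00524). Labelled knockout 4 was above the other 3 yet well under both labelled controls.

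Pik3ip1, an inhibitor of phosphoinositide 3-kinase and a FoxO target, had 22.4, 29.4, 33.3 and 34.5 CPM in the labelled knockouts against 86.7 and 126.5 CPM in the labelled controls (-1.83, SE 0.19; edgeR adjusted p = 0.000716). Fbxo32, the ubiquitin ligase atrogin-1 and another FoxO target, fell by 1.08 (adjusted p = 0.0332; 0.0568 to 0.426 without labelled knockout 1 or 3 or labelled control 2), and these were the 2 calls among 20 insulin, IGF and FoxO genes. Tnfsf10, the death ligand TRAIL, had 5.39, 2.74, 3.13 and 3.80 CPM against 10.2 and 17.5 CPM (-1.88, SE 0.30; adjusted p = 0.0106; 0.227 without labelled control 2). Siglech, a receptor of plasmacytoid dendritic cells and microglia, had 11.1, 6.03, 5.44 and 14.3 CPM against 40.1 and 30.9 CPM (-1.94, SE 0.35; adjusted p = 0.0473). Rasd2, a small GTPase, fell by 1.81 (adjusted p = 0.0367). The calls of both were lost without labelled knockout 1 or 2 or labelled control 2 (adjusted p = 0.0686 to 0.464), and that of Siglech also without labelled control 1 (0.246).

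**Figure D5:**
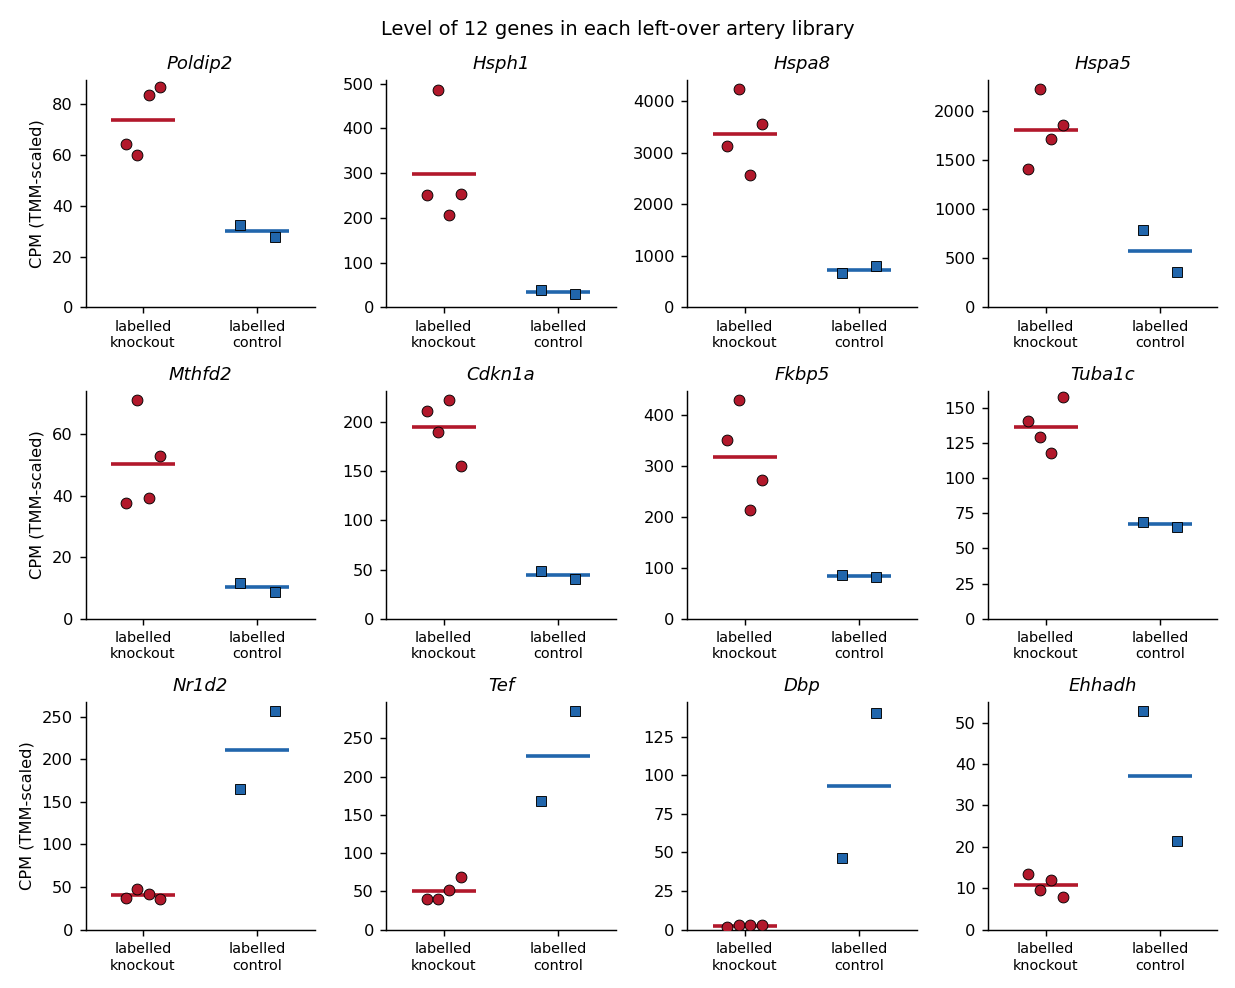
TMM-scaled CPM of 12 genes in each left-over artery library, labelled knockout (red circles, n = 4) left of labelled control (blue squares, n = 2), with the mean of each group as a line and every axis from 0. Poldip2 is at 59.998 to 86.8 CPM in the labelled knockouts and at 27.7 and 32.6 CPM in the labelled controls, and the points of the groups do not overlap for any of the 12 genes.

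Markers of the cell types of the wall were set beside these differences. The summed level of 11 smooth muscle markers was 10614 to 13684 CPM in the labelled knockouts and 11382 to 12214 CPM in the labelled controls. Of 15 fibroblast markers it was 36189 to 57057 CPM against 44122 to 52317 CPM, and of 12 tested macrophage markers 3580 to 4588 CPM against 4275 to 4388 CPM. Endothelial markers, which the flush was meant to remove, summed to 824, 499, 482 and 1285 CPM in the labelled knockouts against 1107 and 1612 CPM in the labelled controls, with 13 of 15 negative. Erythroid genes summed to 1152, 740, 2137 and 2871 CPM against 440 and 899 CPM, 5 of 5 being positive. Mast cell markers were the 1 marker list whose sums did not overlap, with 91.3, 103, 110.8 and 37.2 CPM against 148 and 168 CPM. No gene of the 11 marker lists was called, and none had 0 counts in all 6 libraries. The part of these cell types in the called differences was not tested.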

How the data were processed

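Libraries were RNA sequencing of left-over carotid artery. The authors deposited raw read counts per gene for 35275 genes, with FPKM values, and the submitters' processing notes name edgeR 3.16.5, DESeq2, HTSeq 0.6.1, STAR 2.5, STAR-Fusion and TopHat without their roles. The notes name the mm9 build, but 97.6% of gene starts in the deposited table lay within 5 kb of those of GENCODE M21 on GRCm38, over the 97.8% of gene identifiers found there; whether counting used strand was not stated. The deposited FPKM values equalled counts per gene length and library total in 100% of 173239 nonzero values (tolerance 0.001). The authors' deposited table also gives log2 fold changes and p-values for PD2KO_SM over Ctrl_SM; its PD2KO_SM mean matched the mean of the labelled controls in 1 of 14253 genes, so which libraries it averages is not known.

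Counts were fitted with edgeR 4.0.16 (quasi-likelihood F test, robust, TMM scaling, filterByExpr with a minimum count of 10 and total of 15) in R 4.3.3 with limma 3.58.1 and statmod 1.5.0; this left 20442 genes, and Benjamini-Hochberg adjustment ran over all of them. Calls needed an adjusted p under 0.05. Fold changes are log2, labelled knockout minus labelled control, as given by that fit. A prior count of 2 was used for the log2 CPM of the principal components, the permutation test and the correlations. It did not enter the fold changes. The test was checked on simulated data. The 15 pairs of libraries differed by far more than sampling noise (chi-square per degree of freedom at least 14.9). Of the genes past the threshold with a mean of at least 1 CPM, no overlap and a proper gene symbol, the 12 highest and 12 lowest were named, with up to 6 called genes of each list, or 2 that did not pass. The values of 1 gene are not reported here. Members and lists were chosen with earlier results of these data known. Alternatives were other scalings, filters and tools (DESeq2 1.42.0), all 14 libraries in 1 fit, a replicate block and the omission of each library. Floors cover counting error only. Each SE is the absolute log2 fold change over the square root of its F statistic, so it includes the estimated spread between libraries.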

Additional observations from a re-analysis of the deposited data

Results flagged for a closer look

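In 9 of 113 values examined over the 4 labelled knockout libraries, 1 library lay far from the other 3 by Dixon's ratio, which chance flags in about 1 of 20 groups. Labelled knockout 2 stood apart in 3 genes: it was high for Hsph1 at 486 CPM (the others 206 to 254 CPM) and for Hsf2 at 8.83 CPM (5.003 to 5.39 CPM), and low for Klf4 at 67.0 CPM (90.4 to 94.8 CPM). Labelled knockout 4 was high for Adra2a at 2.06 CPM (0.731 to 0.848 CPM) and for Rgs3 at 41.6 CPM (27.7 to 28.9 CPM). Labelled knockout 1 was high for Dnajb4 at 202.1 CPM (158 to 165 CPM) and low for Mvd at 10.4 CPM (20.4 to 21.6 CPM). It also held more mitochondrial RNA, with mt-Nd1 at 1493 CPM (651 to 753 CPM) and 0.951% of its counts from mitochondrial genes (0.377% to 0.466%). The groups of 2 labelled controls are too small for such a comparison.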

How the results depend on the processing

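The comparison called 162 genes, and all 162 kept their sign in every alternative where they were tested. The number called was 436 with DESeq2's Wald test and 397 with no filter on low counts, and 41 to 260 when 1 library was left out, lowest without labelled control 2 and highest without labelled knockout 4. Calls past a log2 fold change of 1 numbered 104, against 200 with DESeq2, 185 with no filter, 59 with all 14 libraries in 1 fit and 41 to 143 when 1 library was left out. That fit of all 14 libraries called 204 genes, 75 higher and 129 lower, and shared 67 of them with the 162. Scaling by library size alone called 226 genes, 136 higher and 90 lower. Other settings gave 133 to 169. Poldip2 lay between 1.17 and 1.41 when 1 library was left out, and its adjusted p without labelled control 2 was 0.110. Hsf2, which did not pass, lay between -0.0135 (without labelled knockout 2) and 0.304. The cause of these shifts was not tested. Of the named genes that passed, 357 values under the other settings still passed and 59 did not, and under omission 207 did and 105 did not. The replicate numbers 1 and 2 occur in both groups, but same-numbered libraries shared deviations only weakly (correlations of 0.0495 and 0.221 over 11852 genes). A fit with the replicate number as a block called 2015 genes, 601 higher and 1414 lower (29.8% higher, against 53.1%), with 639 past a log2 fold change of 1 and 1 residual degree of freedom; Mthfd2 did not pass there (0.0502). With 2 labelled controls, small differences were not detectable, and a count of 0 allowed up to 0.152 to 0.1997 CPM per library.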
